A study of Homo sapiens with 15 samples.

Results

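The comparison described here was that of the platinum-resistant ovarian cancer line PEO4 after exposure to 16 µM cisplatin with the same line left untreated. It comprised 6 of the 15 Pt-exo-seq libraries of the study, 3 treated and 3 untreated, chosen by their labels. PEO4 is an established line from a high-grade serous ovarian cancer, taken after resistance to platinum had developed clinically, and a 32 µM group of the same line and libraries of its sensitive counterpart PEO1 were also sequenced. Apart from cisplatin, the labels give no difference between the 2 groups: both carried the label resistant and both were digested with exonuclease. Both groups come from 1 cell line, and nothing in the labels says that replicates were separate cultures. The p-values thus measure the spread between libraries, which may be technical. In the main count model this spread was estimated over all 15 libraries, those of PEO1 and of 32 µM included. Counts of DNA fragments hold no cell type marker against which the identity of the line could be checked.

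Cisplatin binds the N7 position of purines and links neighbouring guanines on the same strand, so that runs of G are its main target. Such adducts are bulky: they stop exonucleases and polymerases, and are removed mainly by nucleotide excision repair, with the Fanconi anaemia and homologous recombination pathways acting where both strands are linked. Pt-exo-seq digests sheared DNA with a 5′ to 3′ exonuclease that halts at an adduct, strips the platinum with cyanide and sequences what remains. Reads come also from DNA without an adduct, and the untreated libraries are the only background, since no undigested library was used here. The counts were summed over chromosome arms, 1 Mb bins and gene bodies of at least 50 kb on chromosomes 1 to 22. As each library is scaled to its own total, a change in the overall adduct level cannot be seen, and the values below show only how the reads were distributed.

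Chromosomes 1 to 22 held 36797836, 47230205 and 34110283 counts in the untreated libraries, and 30085584, 31326363 and 55094239 counts in the 16 µM libraries. The median 1 Mb bin had 12950 counts in a library, the median gene body 1606 and the median arm 868350. After filtering, 2703 of 2897 bins, 6492 of 6520 genes and 39 arms were tested. Levels are given below as normalised counts, scaled by library size and TMM factor, and changes as log2 ratios, 16 µM over untreated.

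No arm, bin or gene body passed an adjusted p of 0.05 (edgeR quasi-likelihood test, 0% of features called at each of the 3 levels, with or without correction for GC content). The smallest adjusted p was 0.837 for bins, 0.931 for genes and 0.622 for arms without the correction, and 0.284, 0.883 and 0.546 with it. Most of the variation of the uncorrected changes over arms and bins followed the GC content of the DNA and was held by 1 of the 3 treated libraries, replicate 1. Some features picked for the smallest p, such as ZMYM1 and the bin chr1:162000001-163000000, had groups that did not overlap, with and without the correction. Such separation is partly set by that choice. All treated libraries lay below all untreated ones in 4.68% of genes and 2.66% of bins without the correction. With it the shares were 5.47% and 5.7%. DESeq2 called 1 bin without and 1 with the correction, the same bin, and limma called none at any level.

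To show what a bin at the GC-rich end of that trend looks like, 150 bases of the reference sequence (GRCh37, forward strand) are given from the bin with the lowest log2 ratio in 16 µM replicate 1, chosen for this value. The stretch is the first one outward from the centre of the bin whose GC content and share of GG or CC dinucleotides are within 1 percentage point of the bin's. Capitals mark GG and CC, the main cisplatin target read on either strand. The stretch, chr19:1518301-1518450, lies in the bin chr19:1000001-2000000, which had 59.1% GC and 21.1% GG or CC.
Lowest in replicate 1: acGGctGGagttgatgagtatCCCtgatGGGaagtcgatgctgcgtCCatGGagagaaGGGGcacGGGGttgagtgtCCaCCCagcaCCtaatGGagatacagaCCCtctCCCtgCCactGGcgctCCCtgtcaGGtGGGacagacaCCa
The stretch held 31 GG or CC steps. The bin with the highest ratio in replicate 1, chr11:51000001-52000000, had 37.5% GC and 7.81% GG or CC. It runs into the centromeric gap of the reference sequence, which starts at base 51594206, so part of the bin has no known sequence. In the chromosome 19 bin, which is dense in genes and includes the tumour suppressor kinase STK11, the log2 ratio was -0.83 in 16 µM replicate 1, -0.041 in replicate 2 and -0.091 in replicate 3. In the chromosome 11 bin, which overlaps olfactory receptor genes and is thinly covered with a mean of 1613 normalised counts in untreated cells, the ratios were 0.34, 0.078 and -0.062. Each set against the mean of the other untreated libraries, the untreated libraries were at 0.13, -0.28 and 0.15 in the chromosome 19 bin. Only 16 µM replicate 1 lay outside the untreated range there. With the GC correction described below, the 3 treated ratios were 0.030, 0.032 and 0.018 in the chromosome 19 bin. In the chromosome 11 bin they were 0.21, 0.087 and -0.080.

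Over all bins, the slope of the log2 ratio on GC content was -0.47 per 10 percentage points in 16 µM replicate 1, 0.014 in replicate 2 and -0.047 in replicate 3. In the untreated libraries it was 0.034, -0.11 and 0.076. Replicate 1 thus lay below all 3 untreated libraries, while replicates 2 and 3 lay between them. The mean slope was -0.17 ± 0.26 (SD, n = 3) after 16 µM and 0 ± 0.098 (SD, n = 3) in untreated cells, where 0 is fixed by the reference. The difference of -0.17 had p = 0.5 in an exact two-sided permutation test, which cannot go below 0.1 with these numbers of libraries. Without replicate 1, the difference was -0.017. At 32 µM, given beside it as a description, the slopes were 0.033, -0.44 and -0.35, so that steep slopes also occurred in 2 of 3 libraries at the higher dose. In PEO1, against its own untreated mean, they were 0.41, -0.035 and -0.035 at 16 µM and -0.18, 0.11 and 0.065 in untreated cells. A steep slope in the opposite direction thus occurred at the same dose. The labels give no library preparation batch, so whether the libraries with steep slopes share one was not tested.

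**Figure D1:**
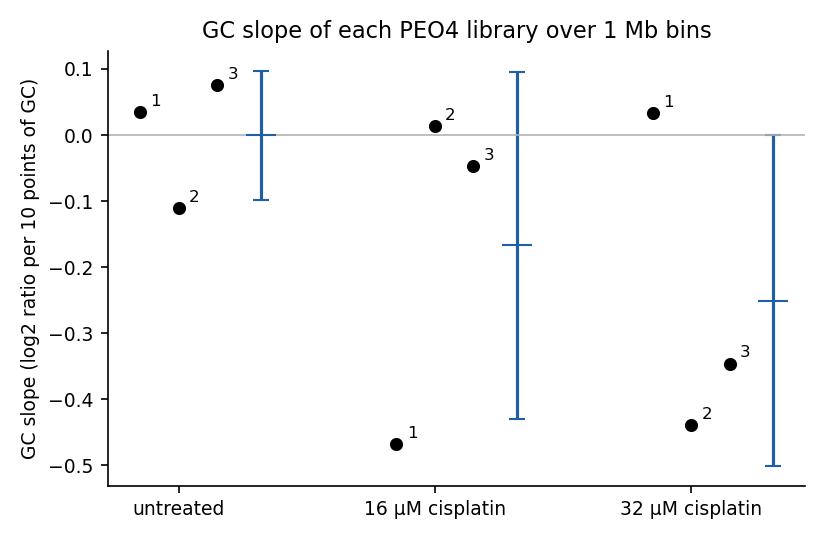
Slope on GC content of each library's log2 ratio to untreated PEO4 over 2703 bins of 1 Mb (vertical axis, log2 units per 10 percentage points of GC) for each PEO4 library (points, numbered by replicate), with the group mean and SD in blue. Replicate 1 sits at -0.47 among the 16 µM libraries, and the other two lie within the untreated range of -0.11 to 0.076.

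The trend ran over the whole range of GC content. In the fifth of bins lowest in GC (33.5% to 37.0%, 541 bins), the median log2 ratio was 0.18 in 16 µM replicate 1, -0.022 in replicate 2 and 0.022 in replicate 3. In the fifth highest in GC (44.6% to 59.1%, 541 bins), it was -0.37, 0.0079 and -0.030. Untreated replicate 2, against the other two untreated libraries, leaned the same way as 16 µM replicate 1, with medians of 0.092 and -0.11 in those classes. GC content accounted for 92.2% of the variance over bins in 16 µM replicate 1, 1.81% in replicate 2 and 23.1% in replicate 3, which is a description over bins of single libraries. The share of GG or CC dinucleotides followed GC content almost exactly over bins (r = 0.997 over 2703 bins), so a change that follows the cisplatin target and one that follows GC content cannot be told apart at this scale.

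**Figure D2:**
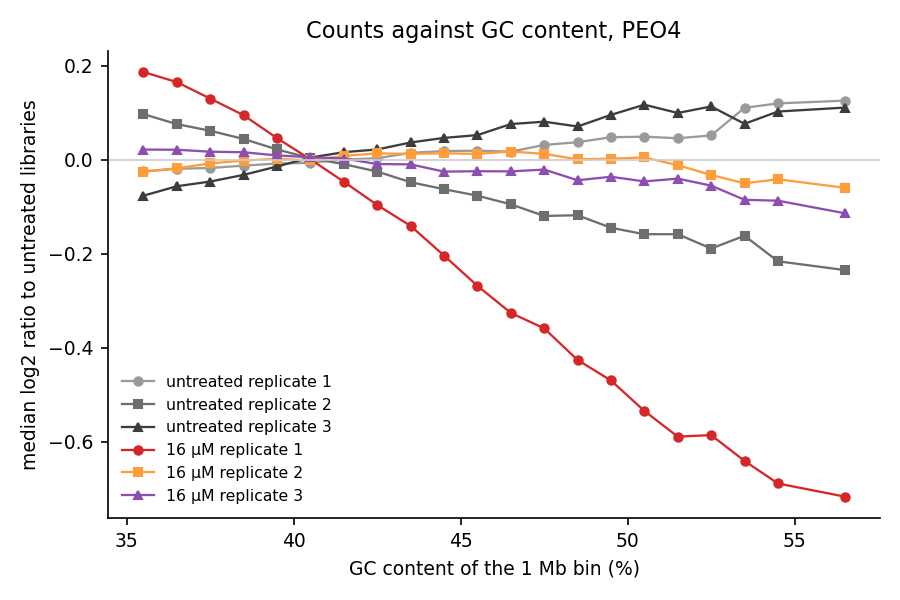
Median log2 ratio (vertical axis) of 1 Mb bins in classes of 1 percentage point of GC content (horizontal axis, %; the lowest and highest classes pool the bins beyond them, and classes under 10 bins are left out). Treated libraries are set against the mean of the 3 untreated libraries and each untreated library against the other two; 16 µM replicate 1 runs from 0.19 at the low end to -0.72 at the high end.

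Of the squared change over bins in the 3 treated libraries, replicate 1 held 92.4%, replicate 2 3.93% and replicate 3 3.68%. Over arms replicate 1 held 99.2% and over gene bodies 74.4%. The SD of the log2 ratio over bins was 0.22 in replicate 1, 0.046 in replicate 2 and 0.044 in replicate 3, beside 0.047, 0.086 and 0.068 in the untreated libraries. Replicates 2 and 3 varied over bins by no more than each untreated library did against the other two. The correlation over bins was -0.049 between replicates 1 and 2, 0.51 between 1 and 3 and 0.21 between 2 and 3, as a description, since the 3 ratios share the untreated mean in their denominator. The correlation of neighbouring bins was 0.77, 0.12 and 0.23 in replicates 1, 2 and 3 over 2662 pairs of neighbours, and 0.24, 0.63 and 0.54 in the untreated libraries, so values above those of replicates 2 and 3 also occurred without cisplatin.

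To remove the trend, a smooth curve of the log2 ratio on GC content was fitted in each library and entered in the model as an offset, which takes out any change that follows GC content, whatever its source. After it, replicate 1 held 49.5% of the squared change over bins, 41.4% over genes and 69.6% over arms. Its SD over bins was 0.058, beside 0.044 and 0.038 in replicates 2 and 3 and 0.040 to 0.044 in untreated libraries. The correlation between neighbouring bins was 0.14 in replicate 1, beside 0.045 and 0.067 in replicates 2 and 3. In the untreated libraries it was 0.032, 0.0070 and 0.13. The spread between replicates that the model estimated, as the biological coefficient of variation, went from 7.30% to 2.40% for bins and from 9.91% to 6.23% for genes, and the median standard error of a bin's log2 change went from 0.063 to 0.028.

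Among the 39 chromosome arms, the 4 with the lowest values without GC correction were 19p, 22q, 19q and 17q, with log2 changes of -0.13 ± 0.14 (SE), -0.11 ± 0.11, -0.10 ± 0.11 and -0.091 ± 0.085. These are gene-dense arms of 45.3% to 49.6% GC. On 19p, the arm highest in GC, the log2 ratio to the untreated mean was -0.44, 0.012 and -0.013 in the 3 treated libraries. The untreated libraries, each against the mean of the other untreated libraries, were at 0.022, -0.15 and 0.13. The groups overlapped there, and only replicate 1 lay outside the untreated range. The 4 highest arms were 4q, 6q, 13q and 5q, of 37.5% to 39.6% GC, with log2 changes of 0.061 ± 0.067 (SE), 0.043 ± 0.053, 0.033 ± 0.044 and 0.029 ± 0.031. On 4q, the arm lowest in GC, the treated libraries were at 0.17, -0.0086 and 0.016. The untreated ones, again each against the other untreated libraries, were at -0.013, 0.064 and -0.050. Of all 39 arms, 19 were above 0 and 20 below, replicate 1 lay beyond 0.1 in 10, and replicates 2 and 3 lay within -0.023 to 0.019 on every arm.

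Without the correction, 0 arms (0%) had an unadjusted p under 0.05 in either direction. The groups did not overlap on 2 arms where the treated libraries were higher (5.13%), 1q and 11p, and on 1 where they were lower (2.56%), 4p. With the correction, the changes of all arms lay between -0.012 and 0.015, with a median standard error of 0.0051. Arm 11p was at 0.015 ± 0.0059 (SE) and 1q at 0.0058 ± 0.0026, the 2 higher arms (5.13%) under an unadjusted p of 0.05. Arm 6q was the 1 lower arm (2.56%), at -0.0068 ± 0.0030. All 3 had an adjusted p of 0.546 in edgeR. The groups did not overlap on 2 arms with higher treated libraries (5.13%), again 11p and 1q, and on 3 with lower ones (7.69%), 6q, 9q and 18p. The change of 6q was thus 0.043 without the correction and below 0 with it. Of the other lowest and highest arms, 13q, 22q and 19q also turned. They were at -0.0075 ± 0.0056 (SE), 0.0061 ± 0.0064 and 0.0064 ± 0.0086 with the correction. Arms 19p, 17q, 4q and 5q kept their sign.

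**Figure D3:**
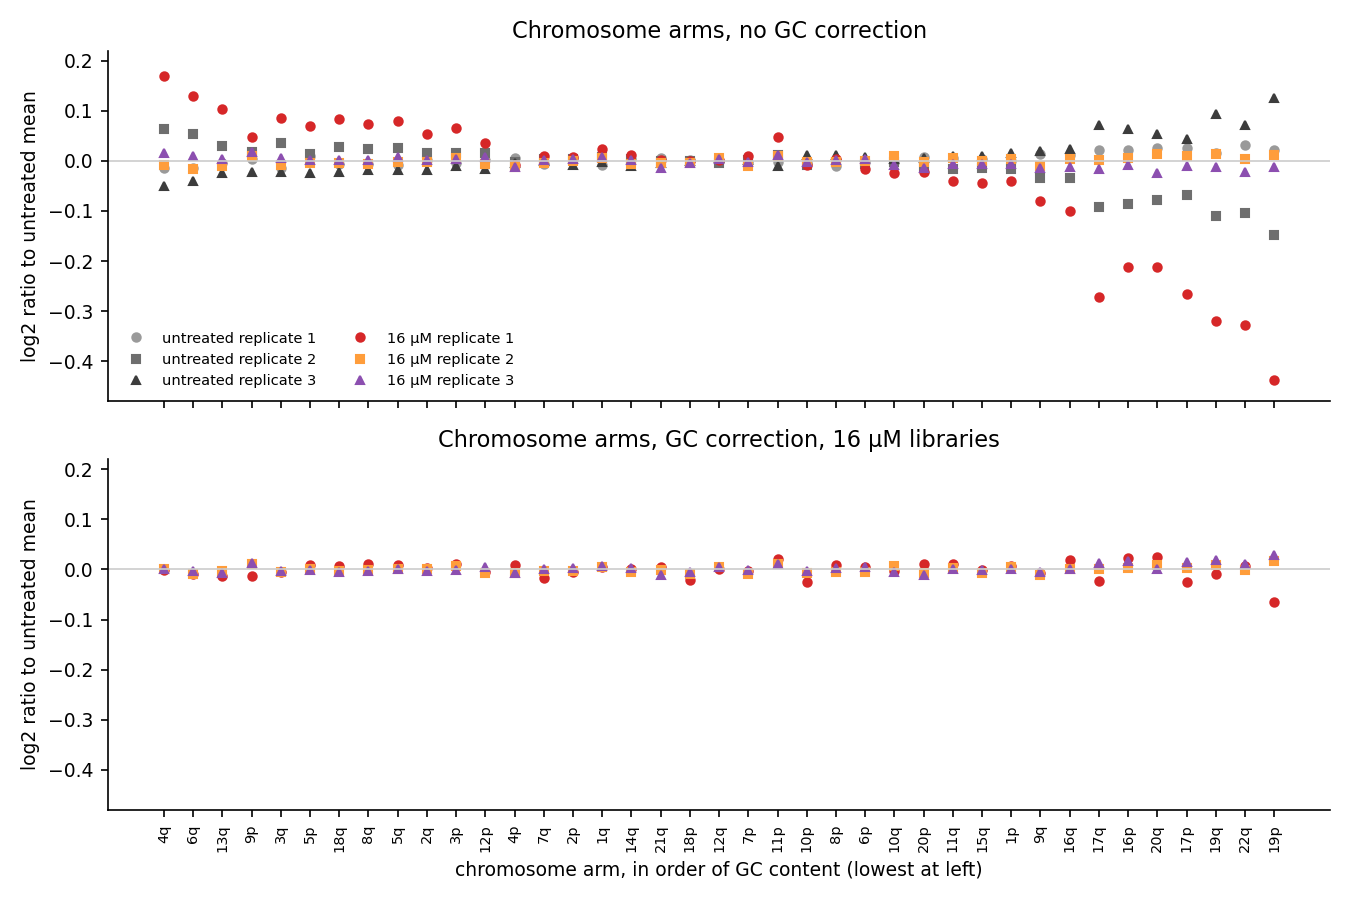
Log2 ratio (vertical axis) for 39 chromosome arms (horizontal axis, from lowest to highest GC content), one point per library. Treated libraries are set against the mean of the 3 untreated libraries and each untreated library against the mean of the other untreated libraries. The upper panel is without GC correction and shows all 6 libraries, the lower panel is with it and shows the 16 µM libraries. Without correction 16 µM replicate 1 runs from 0.17 on 4q to -0.44 on 19p, and with it from 0.024 to -0.064.

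Of 2703 bins of 1 Mb, 7 higher (0.259%) and 7 lower (0.259%) had an unadjusted p under 0.05 without GC correction, and none passed after adjustment. The groups did not overlap in 117 bins where treated libraries were higher (4.33%) and in 72 where they were lower (2.66%). With the correction, 94 higher bins (3.48%) and 62 lower bins (2.29%) had an unadjusted p under 0.05, and the groups did not overlap in 174 (6.44%) and 154 (5.7%). Changes ranged from -0.31 to 0.21 without the correction and from -0.21 to 0.24 with it.

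The bin with the smallest p lay at chr1:162000001-163000000 and overlaps 10 protein-coding genes, among them the collagen receptor kinase DDR2 and NOS1AP, an adaptor of neuronal nitric oxide synthase. It had 13604, 13664 and 13616 normalised counts in the untreated libraries and 12662, 12338 and 12848 after 16 µM. All 3 treated libraries were below all 3 untreated ones. The log2 change was -0.11 ± 0.029 (SE, adjusted p = 0.837 in edgeR) and with GC correction -0.10 ± 0.026 (adjusted p = 0.284 in edgeR). DESeq2's Wald test, an alternative, called this bin with an adjusted p of 0.028 and, with GC correction, of 0.0147, and called no other bin.

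The bin next to it, chr1:163000001-164000000, was among the 4 higher bins with the smallest p and overlaps NUF2, a kinetochore protein, and RGS4 and RGS5, regulators of G-protein signalling. It had 11644, 11996 and 11405 normalised counts in untreated cells and 13500, 12487 and 12398 after 16 µM. Again the groups did not overlap, here with the treated libraries higher. The log2 change was 0.13 ± 0.056 (SE) and with GC correction 0.085 ± 0.026, with adjusted p of 0.837 and 0.408 in edgeR. The lower bin had 41.1% GC and the higher 37.6% GC. A stretch of 150 reference bases, chr1:163496251-163496400, is printed from the higher bin, chosen as above, with GG and CC in capitals, because this bin lies beside one that differed in the other direction and is poorer in GC than the chromosome 19 bin.
Higher bin: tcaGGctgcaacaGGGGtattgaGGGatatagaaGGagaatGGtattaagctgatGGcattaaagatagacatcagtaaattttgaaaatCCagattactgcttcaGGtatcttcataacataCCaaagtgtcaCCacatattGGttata
The stretch held 14 GG or CC steps.

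Among other bins with all treated libraries above the untreated ones, chr12:126000001-127000000, which overlaps TMEM132B, had 11850, 11892 and 12019 normalised counts in untreated cells and 12437, 12840 and 12437 after 16 µM. Its log2 change was 0.077 ± 0.030 (SE) without and 0.083 ± 0.026 with GC correction. A bin on chromosome 2 without a protein-coding gene, chr2:34000001-35000000, had changes of 0.13 ± 0.054 and 0.087 ± 0.027, and chr8:3000001-4000000, which overlaps the large gene CSMD1, had 0.12 ± 0.048 and 0.092 ± 0.041. With the correction, the smallest p among higher bins was at chr11:21000001-22000000, which overlaps the secreted protein gene NELL1 and ANO5, with 10686, 10829 and 10987 corrected counts in untreated cells and 11907, 11761 and 11536 after 16 µM. Its corrected log2 change was 0.11 ± 0.030 (SE), with an adjusted p of 0.284 in edgeR.

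Among lower bins, chr19:21000001-22000000 overlaps a cluster of KRAB zinc finger genes including ZNF43 and ZNF85 and had 13248, 12603 and 13371 normalised counts in untreated cells and 11693, 12326 and 12235 after 16 µM. The treated libraries were all lower, with a log2 change of -0.11 ± 0.037 (SE) and, with GC correction, -0.11 ± 0.028 (adjusted p = 0.284 in edgeR). These genes are closely related copies of one another, so reads may be shared or lost among them in alignment. The bin at the end of 22q, chr22:51000001-51304566, with the lysosomal arylsulfatase gene ARSA and the synaptic scaffold gene SHANK3, had a change of -0.31 ± 0.13 without and -0.13 ± 0.061 with correction. In it replicate 1 was at 1054 normalised counts against 1501 and 1391 in replicates 2 and 3, and at 1529 against 1505 and 1440 corrected counts. The first bin of chromosome 1 had the lowest corrected change among the named bins, -0.21 ± 0.057, with 2939, 3503 and 3512 corrected counts after 16 µM and 3760, 3893 and 3871 in untreated cells.

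Of 6492 gene bodies, 71 higher (1.09%) and 61 lower (0.94%) had an unadjusted p under 0.05 without GC correction, and with it 171 (2.63%) and 114 (1.76%). The groups did not overlap in 368 genes with higher treated libraries (5.67%) and 304 with lower ones (4.68%), and with the correction in 382 (5.88%) and 355 (5.47%). The median log2 change over all genes was 0.0044 without and 0.0014 with correction. Longer genes had higher values without the correction: the median was -0.027 for 2993 genes of 50 to 100 kb and 0.077 for 310 genes over 500 kb. Their median GC content was 42.3% and 38.2%, and with the correction the medians were -0.0039 and 0.020. In replicate 1 alone the medians of these classes were -0.050 and 0.20, in replicate 2 -0.0017 and 0.0084, and in replicate 3 -0.0089 and 0.021.

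The gene with the smallest p in the lower direction was ZMYM1, a zinc finger protein gene at chr1:35497773-35581460. Its body had 1345, 1323 and 1285 normalised counts in untreated cells and 1051, 1101 and 1124 after 16 µM. All treated libraries were lower and close to each other, with a log2 change of -0.27 ± 0.077 (SE, adjusted p = 0.931 in edgeR) and nearly the same value with GC correction, -0.28 ± 0.084. RCL1, which acts in processing of ribosomal RNA, had 799, 717 and 763 normalised counts before and 564, 620 and 643 after, a change of -0.32 ± 0.11 without and -0.30 ± 0.11 with correction. PADI2, a peptidylarginine deiminase gene of 51.8% GC, had 523, 463 and 482 normalised counts in untreated cells and 232, 362 and 377 after 16 µM. Its change was -0.59 ± 0.22 without and -0.44 ± 0.14 with correction, with replicate 1 the lowest in both. ACSF3, a mitochondrial acyl-CoA synthetase gene of 55.2% GC, went from -0.47 ± 0.16 without to -0.26 ± 0.12 with correction, and PLEKHA2 from -0.25 ± 0.090 to -0.17 ± 0.086. With correction, ATG2B, which acts in autophagy, was at -0.27 ± 0.087 and YES1, a kinase of the Src family, at -0.24 ± 0.079.

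In the higher direction, FAM81B had 688, 679 and 653 normalised counts in untreated cells and 1033, 775 and 820 after 16 µM, a log2 change of 0.38 ± 0.11 (SE, adjusted p = 0.931 in edgeR), and 0.30 ± 0.10 with correction. CLOCK, a transcription factor of the circadian clock, had 1420, 1548 and 1534 before and 1831, 1760 and 1765 after, a change of 0.25 ± 0.079 without and 0.19 ± 0.070 with correction. In both genes the groups did not overlap, and without the correction the 3 treated libraries of CLOCK were close to each other. With it the ratios of CLOCK in replicates 1, 2 and 3 were 0.099, 0.24 and 0.22. TRDMT1, an RNA methyltransferase gene, was at 0.34 ± 0.11 and 0.27 ± 0.097, and FGF5, a fibroblast growth factor gene, at 0.34 ± 0.11 and 0.28 ± 0.11. With correction the smallest p belonged to RSRC1, a splicing-related gene, with 5156, 4973 and 5189 corrected counts in untreated cells and 5677, 5712 and 5472 after 16 µM. Its corrected change was 0.14 ± 0.038 (SE, adjusted p = 0.883 in edgeR), and NELL1, which overlaps the chromosome 11 bin above, followed at 0.12 ± 0.033. The channel genes CACNA1C and KCNMA1 were at 0.10 ± 0.031 and 0.11 ± 0.034 with correction, and at 0.014 ± 0.088 and 0.077 ± 0.051 without it. In replicates 1, 2 and 3 the corrected ratios were 0.18, 0.10 and 0.030 in CACNA1C, where the groups overlapped. In KCNMA1 they were 0.21, 0.047 and 0.079, so replicate 1 was the highest in both genes.

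**Figure D4:**
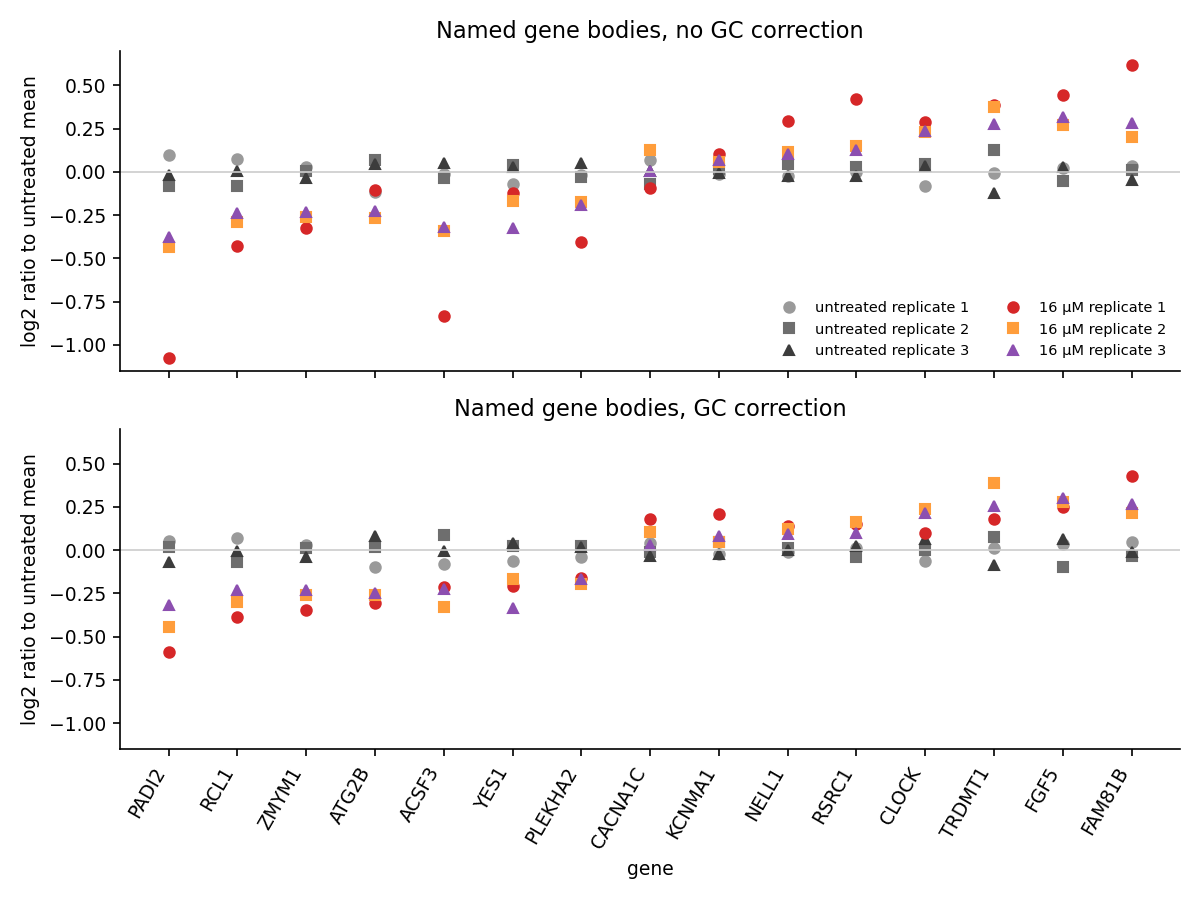
Log2 ratio to the mean of the 3 untreated libraries (vertical axis) for the 15 named gene bodies (horizontal axis, in order of corrected change), one point per library, without GC correction above and with it below. In PADI2 and ACSF3, both over 50% GC, 16 µM replicate 1 lies far below the other two treated libraries without the correction and nearer to them with it.

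Genes were then read by their roles. Among genes of the Fanconi anaemia pathway and homologous recombination, which repair crosslinks and breaks, 24 of 35 were long enough to test, and the median log2 change was 0.0041, beside 0.0044 over all genes. None passed the adjusted threshold, 13 were above 0 and 11 below, and 2 had an unadjusted p under 0.05, beside 2.03% of all genes. With correction the median was -0.028, beside 0.0014 over all genes, with 10 above 0 and 14 below, so its direction turned, and 2 had an unadjusted p under 0.05, beside 4.39% of all genes. Those 2 were BRCA2, a mediator of homologous recombination, and FAN1, a nuclease that acts on crosslinks. BRCA2 had 640, 617 and 594 normalised counts in untreated cells and 530, 490 and 505 after 16 µM, with a change of -0.28 ± 0.11 (SE) and -0.33 ± 0.11 with correction. All 3 treated libraries were below all 3 untreated ones, in normalised and in corrected counts. FAN1 had 764, 817 and 651 before and 636, 652 and 563 after, where the groups overlapped by 1 library, with a change of -0.27 ± 0.12, and -0.26 ± 0.10 with correction. Without correction the lowest member was FANCA, of the Fanconi core complex, at -0.30 ± 0.18, where replicate 1 had 474 normalised counts and replicates 2 and 3 had 744 and 619. The highest was FANCL, the ubiquitin ligase of that complex, at 0.17 ± 0.15. With correction these were at -0.17 ± 0.11 and 0.066 ± 0.092, and BRCA2 was the lowest member.

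Of the nucleotide excision repair genes, 14 of 35 were tested, and 0 had an unadjusted p under 0.05. Their median was -0.013 without and -0.0097 with correction. Without it they ran from POLE, the leading-strand polymerase, at -0.30 ± 0.14 to RPA3, a subunit of the single-strand binding protein, at 0.13 ± 0.16, and with it these were at -0.14 ± 0.099, where the groups overlapped, and 0.061 ± 0.12. Translesion synthesis genes, whose polymerases copy past adducts, had a median of 0.060 over 9 of 12 genes without correction and -0.018 with it, so their direction turned with the GC correction. POLI was the lowest at -0.25 ± 0.17 and -0.32 ± 0.12 with correction, with 626, 750 and 647 normalised counts in untreated cells and 595, 456 and 648 after 16 µM. REV1, the scaffold of these polymerases, was the highest at 0.16 ± 0.090, and at 0.12 ± 0.084 with correction. Mismatch repair genes, 5 of 8 tested, had a median of 0.082 without and 0.0048 with correction, MSH6, which recognises mismatches, was lowest at -0.12 ± 0.097, and at -0.072 ± 0.073 with correction, and 0 had an unadjusted p under 0.05.

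Among genes of platinum transport and detoxification, 12 of 19 were tested, with a median of -0.048 without and -0.024 with correction. ABCC5, an efflux pump, was lowest, with 1483, 1349 and 1452 normalised counts in untreated cells and 1281, 1227 and 1304 after 16 µM, a change of -0.17 ± 0.076, and -0.12 ± 0.072 with correction, where the groups overlapped. SLC22A2, an organic cation importer, was highest at 0.080 ± 0.12, and at 0.071 ± 0.11 with correction. Of genes whose copy number is often altered in serous ovarian cancer, 10 of 14 were tested, with a median of 0.082 without and 0.026 with correction. MECOM, a transcription factor gene on 3q, had 6835, 6594 and 6759 normalised counts in untreated cells and 8092, 7398 and 7257 after, and its change was 0.17 ± 0.076, and 0.11 ± 0.035 with correction. The groups did not overlap in either. AKT2, a survival kinase of 53.6% GC, was lowest at -0.25 ± 0.18, and at -0.061 ± 0.098 with correction.

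All 16 genes at common fragile sites, which are very long and break under replication stress, were tested. Of them 15 were above 0, beside 3354 of all 6492 genes. Their median was 0.086, beside 0.077 over all 310 genes over 500 kb. In replicates 1, 2 and 3 the medians of the fragile site genes were 0.22, 0.023 and 0.029. With correction their median was 0.021, beside 0.020 over the genes over 500 kb, and 13 were above 0, beside 3299 of all genes. RORA, a nuclear receptor gene, had 9450, 9801 and 9304 normalised counts in untreated cells and 10377, 10431 and 9858 after 16 µM. The groups did not overlap, with a change of 0.10 ± 0.053 without and 0.096 ± 0.034 with correction, and it was 1 of 2 members with an unadjusted p under 0.05 after correction, beside 4.39% of all genes. The lowest, WWOX, was at -0.0086 ± 0.071, and at 0.0018 ± 0.061 with correction.

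Genes transcribed in every cell and neuronal genes, transcribed mainly in nerve cells, were set side by side. Of the first, 25 of 30 were tested, with a median of 0.014 without and -0.0050 with correction, running from EP300, a histone acetyltransferase, at -0.22 ± 0.12 to TNPO1, a nuclear import receptor, at 0.19 ± 0.084. TNPO1 had 1233, 1344 and 1394 normalised counts in untreated cells and 1584, 1458 and 1498 after 16 µM. With correction EP300 was at -0.22 ± 0.11 and TNPO1 at 0.13 ± 0.076, where the groups overlapped. All 25 neuronal genes were tested, of which 24 were above 0, with a median of 0.081, and a median of 0.22 in replicate 1, 0.013 in replicate 2 and 0.025 in replicate 3. Their median GC content was 37.7%, beside 40.4% in the genes transcribed everywhere. With correction the neuronal median was 0.017 and 19 were above 0. Over all 310 genes over 500 kb, the medians were 0.077 without and 0.020 with correction. After correction 3 neuronal genes had an unadjusted p under 0.05, beside 4.39% of all genes. These were the splicing factor gene RBFOX1 at 0.068 ± 0.024 and NTM, a cell adhesion gene, at 0.084 ± 0.032. Also among them was the NMDA receptor gene GRIN2B at 0.083 ± 0.037. In replicates 1, 2 and 3 the corrected ratios were 0.11, 0.047 and 0.048 in RBFOX1. They were 0.16, 0.065 and 0.027 in NTM and 0.16, 0.042 and 0.055 in GRIN2B. The groups overlapped in NTM and GRIN2B. The highest without correction was ERBB4, a receptor kinase of 34.7% GC, with 17769 normalised counts in replicate 1 against 14085 and 14298 in replicates 2 and 3 and 12905 to 14229 in untreated cells. Its change was 0.17 ± 0.10, and 0.055 ± 0.030 with correction. The lowest was DSCAM, at -0.0029 ± 0.052, and at -0.020 ± 0.035 with correction. In none of the 9 lists did a gene pass the adjusted threshold.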

How the data were processed

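Deposited values were raw counts per 1 kb window, stepped by 900 bp, in 15 libraries. Per the labels and the study's methods, the authors trimmed reads, aligned them to hg19 with Bowtie2, removed blacklisted regions and removed duplicates with Picard. Versions are not given in the sources used here. All 22 autosome lengths equalled those of the GRCh37 reference used for GC content and for GENCODE genes (of 19229 protein-coding autosomal genes, 6520 reach 50 kb). Windows went to features by midpoint. Windows overlap, so some reads may count in 2 of them, which was not checked. Arms were split at the centromeric gap, and 5 short arms were left out. Bins and genes needed a mean of at least 50 counts and 50% unambiguous bases.

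The deposited counts were tested with edgeR 4.0.16 (quasi-likelihood F test, TMM, R 4.3.3) in 1 model of 15 libraries and 5 groups, with Benjamini-Hochberg adjustment over all features of a level. The GC correction was an offset per library, a natural spline of 4 degrees of freedom fitted to the log2 ratio to the untreated mean of the line. For arms it was summed from bins. The trended dispersion was kept at or above 0.0002, a floor set after a first fit of the corrected arms: their dispersions were at the lower edge of edgeR's range, where its deviance is inaccurate at such counts and p-values were wrong. All 39 corrected arms were at the floor, and no bin, gene or uncorrected arm was. The standard errors and p-values of the corrected arms were thus computed at it. With a floor of 0.001, their median standard error was again 0.0051. Scripts were tested on simulated data. DESeq2 1.42.0 and limma 3.58.1 were alternatives, with other normalizations, filters, bin widths, gene lengths, sample sets and GC curves, and leaving out each library.

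Named bins and genes were the 4 with the smallest p in each direction, without and with GC correction, at least 5 Mb (bins) or 1 Mb (genes) apart, and the lowest and highest member of each gene list by log2 change. Other list members under an unadjusted p of 0.05 and the bins with the lowest and highest ratio in replicate 1, with chromosome 8 left out of the choice, were picked after their values were seen. The comparison, members and gene lists were chosen with earlier results of these data known. A few features that the rule names are not reported here.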

Additional observations from a re-analysis of the deposited data

How the results depend on the processing

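None of the alternatives run for edgeR or limma, leaving out each library included, gave a feature past the adjusted threshold at any level. In edgeR with the 6 libraries of the comparison only and GC correction, the smallest adjusted p was 0.138 for bins, 0.489 for genes and 0.349 for arms. The DESeq2 Wald test called 1 bin without GC correction (adjusted p = 0.028) and 1 with it (adjusted p = 0.0147), the same bin, chr1:162000001-163000000. The GC slope difference of -0.17 kept its sign under every alternative run and was -0.26 to -0.017 with each library left out.

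Of 867 pairs of a named feature and an alternative, 859 kept direction and side of the threshold, 2 passed it and 6 turned. Each feature was followed within its own GC setting, so turns between uncorrected and corrected values, as on 6q, are not counted. Named features were picked by p or by value in these same libraries, so a kept direction was partly set by that choice. Left out 1 at a time, libraries moved WWOX from -0.033 to 0.021 (0.020 without untreated replicate 3 and 0.021 without 16 µM replicate 3), DSCAM from -0.023 to 0.018 (0.018 without 16 µM replicate 2), SLC22A2 from -0.013 to 0.17, 13q from -0.0034 to 0.055 and 6q from -0.0028 to 0.071, the last 3 turning without 16 µM replicate 1.

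Counts at an unadjusted p under 0.05 moved with the libraries used. Without GC correction, 14 bins became 8 without 16 µM replicate 1 and 4 to 31 over all 6 libraries left out, 23 with the 6 libraries of the comparison only, 7 with the 9 PEO4 libraries, 34 by DESeq2, 60 in 500 kb and 4 in 2 Mb bins. The 132 genes became 45 without 16 µM replicate 1, 261 without replicate 2, 224 without replicate 3, 73 and 64 without untreated replicates 1 and 3, 227 with 6 libraries only and 56 at 100 kb or more. With correction, 156 bins became 294 in 500 kb and 72 in 2 Mb bins, 285 genes became 149 at 100 kb or more, and 3 arms became 1 by DESeq2 and 0 without 16 µM replicate 1. For the corrected arms, a dispersion floor of 0.001 and limma, both chosen after seeing the data, gave smallest adjusted p of 0.544 and 0.543 and 3 arms each at an unadjusted p under 0.05.

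Replicate numbers did not mark shared cultures in the labels, so the numbers were not taken as pairs. Over bins, the same-numbered libraries' deviations from their group means correlated at -0.46, -0.84 and 0.70 (0.11, -0.13 and 0.18 with GC correction). Without correction, untreated replicate 2 also correlated at 0.85 with 16 µM replicate 1 and at -0.76 with replicate 3. These values therefore do not show whether same-numbered libraries shared a culture. With a replicate block, 0 features passed at any level, unadjusted counts were 3 bins and 63 genes without and 148 bins, 286 genes and 1 arm with GC correction, and the slope difference was -0.17 (exact sign-flip permutation p = 0.75).

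Treated libraries were 3, so a change that differs between them is read as spread. The GC offset removes any part of a cisplatin effect that follows GC content.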
